A study of Mus musculus with 2 samples.

Results

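The genes described here are 49 transcription factor genes of embryonic development that lie outside the Hox clusters, out of 17015 autosomal protein-coding genes measured in these libraries. They were listed by name: 5 Pax, 6 T-box, 4 LIM homeodomain, 4 Dlx, 4 Irx, 3 Sox, 3 NK homeodomain, 3 bHLH and 3 zinc finger genes, 4 Otx and Emx genes, 3 En and Gbx genes, 3 Msx and Barx genes, 2 genes of the sine oculis family (Six2 and Six3), and Gsc with Pitx1. For each gene the CpG cytosines inside its mm10 RefSeq span and within 5 kb of either end were taken if at least 10 reads covered them in both libraries. All 49 genes had such cytosines, between 41 in Neurog1 and 507 in Pax2, and 11732 distinct cytosines in all. Dlx1 and Dlx2 shared 11 of them and the neighbours Zic1 and Zic4 shared 163, so these pairs are not separate measurements throughout.

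DNA methylation was measured by reduced representation bisulfite sequencing, which reads cytosines near the cut sites of restriction enzymes and reports an unmethylated cytosine as converted. The mice were of the outbred CD-1 stock, 12-week-old, housed on standard chow, and either left untreated (control) or fasted for 12 hr before the liver was frozen. Each state was sampled by 1 library, and how many mice a library came from is not stated. No replicate spread exists, so tests on reads set one library against the other and cannot speak for the conditions.

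Genes of this kind switch on organ and body plan programmes in the embryo. Their starts lie in long CpG-rich regions that are bound by Polycomb complexes, which keep a gene silent without DNA methylation, in most tissues where the gene is off. DNA methylation in mammals covers most other CpGs, gene bodies included, and CpG islands are the main exception. Most of these genes are known to be off in adult hepatocytes, but the files hold no RNA, so expression was not measured here. For the same reason the liver label could not be checked by expressed markers. By methylation, 1 of 8 liver marker genes (Foxa3) and 1 of 6 blood cell marker genes (Cd79a) had spans below 10% in both libraries. Of all protein-coding genes 21.6% did. Some marker spans held few measured cytosines, such as 5 in Alb and 7 each in Ttr and Serpina1a. These counts are no check of the liver label.

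The promoter sequences show how dense the measured positions were at starts and where one start departed from the rest. RefSeq promoter entries (GRCm38.p6, the mm10 build, 250 bases before to 50 after a start) matched 33 of the 49 genes with 41 starts. The 16 genes without an entry were Dlx5, Dlx6, En2, Hand1, Irx1, Irx5, Otx1, Pax3, Pitx1, Sox9, Sox17, Tbx2, Tbx3, Tbx5, Tbx15 and Wt1. All 4 promoters shown lie on the minus strand and are written 5′ to 3′, and capitals mark each CG with at least 1 cytosine covered by 10 or more reads in both libraries. The Isl1 promoter is chr13:116309639-116309938, that of Msx1 is chr5:37824536-37824835, and the starts of Tbx1 are chr16:18590622-18590921 (start A) and chr16:18588850-18589149 (start B).
Isl1: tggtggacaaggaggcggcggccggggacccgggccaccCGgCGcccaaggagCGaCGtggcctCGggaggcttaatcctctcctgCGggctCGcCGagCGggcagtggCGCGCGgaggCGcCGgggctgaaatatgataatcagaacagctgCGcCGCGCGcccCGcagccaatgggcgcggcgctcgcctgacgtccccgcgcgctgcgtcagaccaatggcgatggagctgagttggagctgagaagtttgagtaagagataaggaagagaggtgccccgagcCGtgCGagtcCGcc
Msx1: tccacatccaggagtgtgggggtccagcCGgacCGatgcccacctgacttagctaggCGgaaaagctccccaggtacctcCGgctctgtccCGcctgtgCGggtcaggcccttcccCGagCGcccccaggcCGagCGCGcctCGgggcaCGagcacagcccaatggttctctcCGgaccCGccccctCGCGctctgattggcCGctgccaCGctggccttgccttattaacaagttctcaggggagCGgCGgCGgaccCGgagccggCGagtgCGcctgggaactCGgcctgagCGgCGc
Tbx1 start A: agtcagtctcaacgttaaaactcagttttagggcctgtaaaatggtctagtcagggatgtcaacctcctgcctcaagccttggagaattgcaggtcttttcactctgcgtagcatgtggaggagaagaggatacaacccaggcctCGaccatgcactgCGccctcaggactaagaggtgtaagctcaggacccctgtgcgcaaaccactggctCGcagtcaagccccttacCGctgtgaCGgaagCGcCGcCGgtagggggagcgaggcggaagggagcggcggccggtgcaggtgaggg
Tbx1 start B: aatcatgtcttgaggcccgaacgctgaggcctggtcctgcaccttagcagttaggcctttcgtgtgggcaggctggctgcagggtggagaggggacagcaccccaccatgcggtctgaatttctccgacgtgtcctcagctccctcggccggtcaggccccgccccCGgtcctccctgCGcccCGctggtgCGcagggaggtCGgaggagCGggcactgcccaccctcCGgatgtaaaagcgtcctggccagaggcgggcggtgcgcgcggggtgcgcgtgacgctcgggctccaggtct

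The Isl1 sequence held 37 CpGs, and its 36 measured cytosines averaged 1.29% methylated (control) and 0.72% (fasted). Msx1 held 29 CpGs and 5 MspI sites, with 52 measured cytosines at 0.77% and 1.26%. Tbx1 start A, with 14 cytosines, stood at 0.99% and 2.76%. Start B of the same gene, with 12 cytosines, stood at 22.0% and 18.2%, the highest level among the 27 promoters with at least 3 measured cytosines. Over the 41 promoters the median number of CpGs was 24, against 14 over the 20085 promoters of all protein-coding genes. The MspI site CCGG, a palindrome and so read alike on both strands, was present in 36 of 41 promoters (87.8%), against 63.5% of all promoters. The TaqαI site TCGA, also a palindrome, was present in 8 (19.5%), against 24.1%. A promoter without either site can still be read from a cut outside it, and 27 of the 41 promoters had at least 3 measured cytosines. In 25 of those 27 the level was below 10% in both libraries (92.6%, against 93.7% of all measured promoters).

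Coverage was similar in the libraries. Summed over all listed cytosines there were 49253627 reads (control) and 51276705 (fasted), with a read counted at every cytosine it covers. Cytosines of the 49 genes had median coverages of 21 and 22 reads. Among cytosines of the 49 genes between 20 and 80% methylated with 30 to 49 reads, both read counts were even at 57.7% (control) and 52.1% (fasted). With 10 to 19 reads these shares were 27.4% and 29.7%. Reads that come in pairs or from 1 PCR product are not independent molecules, so the intervals and tests, which know counting error alone, are too narrow where that holds.

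The 49 genes were low in methylation in both libraries. A gene's level is the mean over its cytosines of the percent of reads that were methylated, and pairs of levels are given with the control library first. The median level of the 49 genes was 6.12% (control) and 6.0% (fasted), while that of all protein-coding genes was 24.3% and 24.1%. Of the 49 genes, 38 were below 10% in both libraries (77.6%), against 21.6% of all protein-coding genes. A further 10 were at or above 10% in both, and Tbx2, at 11.5% and 9.98%, was above in the control library alone. The plot of levels by family shows both libraries for each gene.

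**Figure D1:**
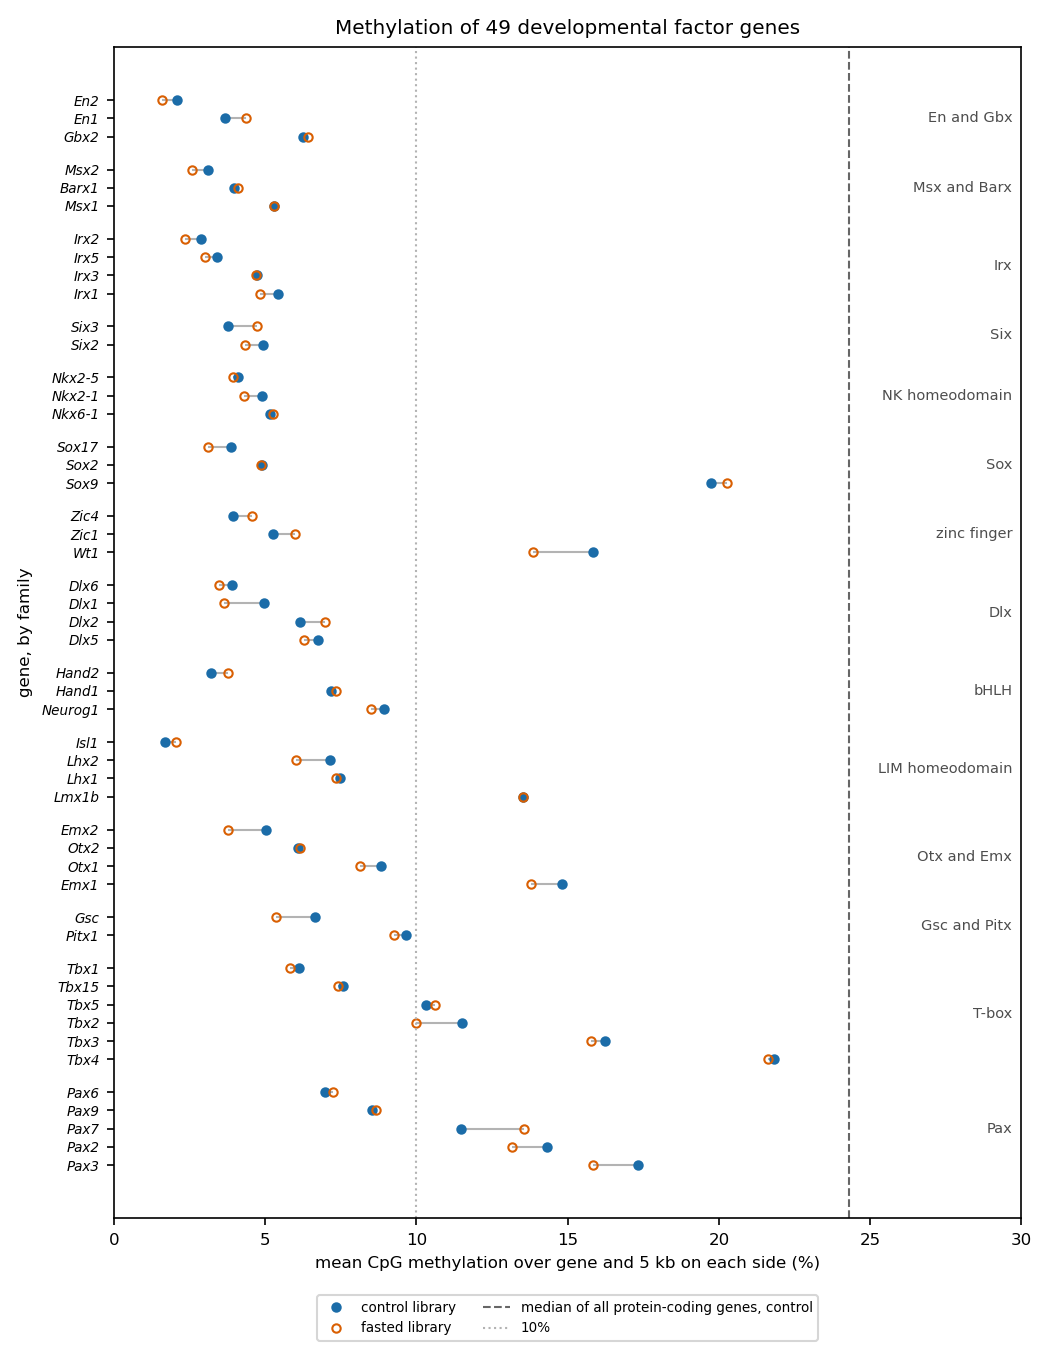
Mean CpG methylation in percent (x axis) of each of the 49 genes with 5 kb on either side, by family (y axis), in the control library (filled) and the fasted library (open). The dotted line marks 10% and the dashed line the control median of all protein-coding genes, 24.3%, and all 49 genes lie to its left.

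The same was seen in windows of 1000 bp with at least 3 measured cytosines. The 49 genes held 509 distinct windows. Of these, 349 (68.6%) were below 10% in both libraries and are called unmethylated, 49 (9.63%) were at or above 50% in both and are called methylated, and 111 (21.8%) lay between. In windows of all protein-coding genes the shares were 27.3%, 59.2% and 13.5%. The unmethylated windows of the 49 genes were not at 0: their median level was 3.97% in the control library, against 0.941% for unmethylated windows of all genes. For other developmental factors it was 3.75% and for Hox genes 4.97%, both lists being described further on. Among cytosines below 10% in both libraries, 44.1% of those in the 49 genes had no methylated read in either, against 70.6% in all genes. That share was 46.1% in other developmental factors and 36.7% in Hox genes. Single cytosines between 10 and 50%, or on different sides of a limit in the 2 libraries, made up 25.5% of the total in the 49 genes and 11.7% in all genes. In other developmental factors they made up 24.0% and in Hox genes 35.2%. Cytosines at or above 50% in both made up 3.0% in the 49 genes and 27.1% in all genes. The plot of cumulative levels compares the gene groups.

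**Figure D2:**
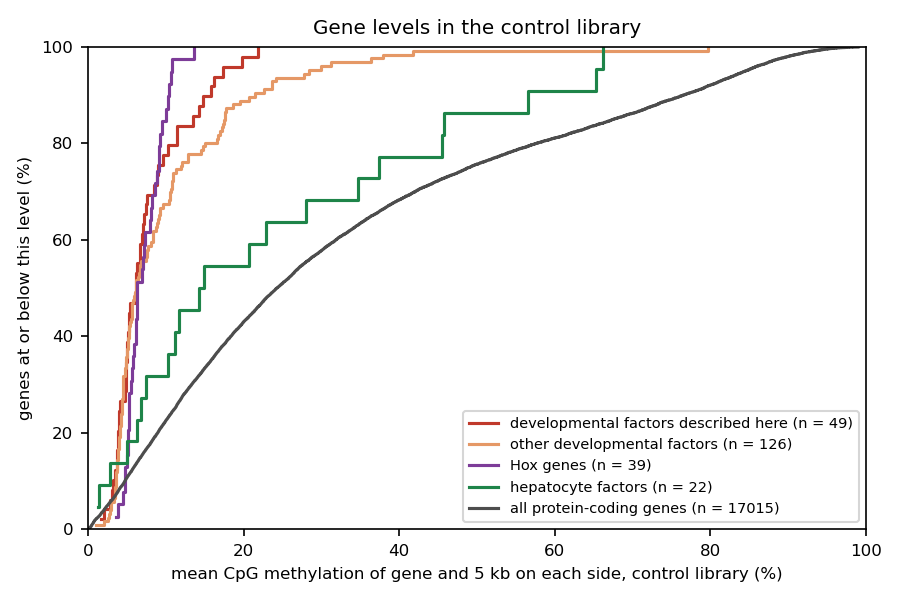
Cumulative share of genes in percent (y axis) against mean methylation of the gene with 5 kb on either side in the control library in percent (x axis), for the 49 genes and the other gene groups. The curve of the 49 genes lies far to the left of that of all protein-coding genes, and 38 of the 49 were below 10% in both libraries.

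Among the lowest levels were those of the LIM gene Isl1 and of genes of the En, Irx and Msx families. Isl1, needed for motor neurons, pancreatic islets and heart progenitors, stood at 1.68% (control) and 2.04% (fasted) over 92 cytosines, and all 4 of its windows were unmethylated. Of the 92, 81 lay within 1000 bp of the start and 14 inside the gene, so this level is mostly that of the start. En2, which patterns the midbrain and cerebellum, stood at 2.08% and 1.58% with all 7 windows unmethylated, and its paralog En1 at 3.68% and 4.35% with all 6. The iroquois genes, which pattern the neural tube and heart, had no methylated window among 34. Irx2 stood at 2.88% and 2.34%, Irx5 at 3.41% and 3.0%, Irx3 at 4.73% and 4.70%, and Irx1 at 5.41% and 4.82%. Msx2, active in skull and limb mesenchyme, stood at 3.10% and 2.59%, the tooth and palate factor Msx1 at 5.28% and 5.29%, and Barx1, a factor of stomach mesenchyme, at 3.95% and 4.08%. None of the 29 windows of these 3 genes was methylated.

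Low levels were also found in other families, and their higher members, where there were any, are given further on. The heart and limb factor Hand2 stood at 3.22% and 3.78%. Six3, a forebrain and eye factor, stood at 3.78% and 4.71%, and Six2, which maintains nephron progenitors, at 4.92% and 4.35%. Together Six2 and Six3 had 1 methylated window among 27. Sox17, a factor of endoderm and arterial endothelium, stood at 3.87% and 3.10%, and Sox2, a factor of pluripotent and neural progenitor cells, at 4.91% and 4.86%. The NK genes lay close together, with Nkx2-5, the cardiac factor, at 4.09% and 3.92%, the thyroid and lung factor Nkx2-1 at 4.88% and 4.29%, and Nkx6-1, of beta cells and motor neurons, at 5.15% and 5.25%. The cerebellar factors Zic4 and Zic1 stood at 3.93% and 5.25% in the control library, and at 4.56% and 6.0% in the fasted one. The 4 Dlx genes, which pattern jaw and forebrain, ranged from 3.89% (Dlx6; 3.47% fasted) to 6.75% (Dlx5; 6.29% fasted). None of the 32 Dlx windows and none of the 22 NK windows was methylated.

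Of the 49 genes, 21 had no cytosine at or above 50% in both libraries, and 32 had no methylated window. In 9 genes every measured window was unmethylated. These 9 were Barx1, Dlx5, Dlx6, En1, En2, Irx5, Isl1, Msx2 and Nkx2-5. Dlx5 nevertheless had 3.57% of its 56 cytosines at or above 50% in both libraries.

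Methylated parts were found in 17 genes, among them all 5 Pax genes and 5 of the 6 T-box genes. The 5 Pax genes held 18 methylated windows among 90. Pax3, which specifies neural crest and muscle precursors, stood at 17.3% (control) and 15.9% (fasted), with 7 methylated windows and 14.9% of its 242 cytosines methylated in both libraries. Pax2, a kidney and optic nerve factor, stood at 14.3% and 13.2%, with 6 methylated windows and 10.1% of cytosines. Pax7, the factor of muscle stem cells, stood at 11.5% and 13.5%, with 3 methylated windows and 8.94% of cytosines. Pax9, of teeth and thymus, stood at 8.52% and 8.66%, and the eye factor Pax6 at 6.97% and 7.24%. Each of these lower genes had 1 methylated window, and that of Pax6 stood at 95% and 95.5%, beside 12 unmethylated ones.

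The T-box genes held 13 methylated windows among 82. Tbx4, the hindlimb factor, had the highest level of the 49 genes, 21.8% and 21.6%, and the largest share of methylated cytosines, 17.8% of 146. Its methylated windows stood between 78.0% and 90.6%, while 3 other windows were unmethylated. Tbx3, of limb, mammary gland and heart conduction system, stood at 16.2% and 15.8%. One of its 3 methylated windows, with 34 cytosines, stood at 58.8% and 59.2%. The window just before the lower end of the gene, with 40 cytosines, stood at 0.32% and 0.11%. Tbx5, which specifies forelimb and heart, stood at 10.3% and 10.6% with 4 methylated windows among 21, and 6.44% of its cytosines were methylated. Tbx15, of skin and skeleton, stood at 7.57% and 7.42%, and Tbx1, of the pharyngeal arches, at 6.12% and 5.81%.

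The other genes with a large methylated share came from several families. Wt1, of kidney and gonad, stood at 15.8% and 13.9% with 12.1% of cytosines methylated. Emx1, of the cerebral cortex, stood at 14.8% and 13.8% with 9.85%, and 1 of its windows, with 10 cytosines, at 93.2% and 91.1%. Its paralog Emx2 stood at 5.01% and 3.78% and had no methylated window. Lmx1b, which patterns the dorsal limb and the glomerulus, stood at 13.5% in both libraries with 7 methylated windows and 9.35% of cytosines, while the other LIM genes Lhx1 and Lhx2 stood at 7.47% and 7.13% in the control library, and at 7.34% and 6.01% in the fasted one. Sox9, of cartilage, testis and bile ducts, stood at 19.8% and 20.3% over 86 cytosines. It had no methylated window, although 9.30% of its cytosines were methylated. Its windows at and just before the lower end of the gene lay between 0.51% and 3.87%, and the 3 windows further in between 26.8% and 57.1%.

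Some genes were above 5% with little or no methylated sequence. Tbx2, a repressor in heart and limb, was the clearest case. Of its 13 windows, 10 lay between the limits and none was methylated, and 55.7% of its 357 cytosines were in the middle class. Gbx2 (6.24% and 6.42%), Gsc (6.65% and 5.34%), Hand1 (7.16% and 7.33%), Otx1 (8.81% and 8.14%), Otx2 (6.07% and 6.16%), Dlx2 (6.16% and 6.96%), Neurog1 (8.94% and 8.49%) and Pitx1 (9.66% and 9.27%) were similar in level, and of these Gbx2 and Pitx1 had 1 methylated window each. Within windows that lay between the limits, 47.2% of the 1454 cytosines were themselves between 10 and 50% in the control library, 45.7% were below 10% and 7.02% were at or above 50%. These windows thus held cytosines of middle level as well as cytosines on either side.

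Methylated parts lay in long genes and away from starts. All 7 genes of 40 kb or longer (Lmx1b, Pax2, Pax3, Pax7, Tbx5, Tbx15 and Wt1) had at least 1 methylated window, 34 of their 137 windows were methylated and their median control level was 13.5%. Of 30 genes under 10 kb, 2 had such a window, 2 of 245 windows were methylated and the median was 5.08%. Windows shared by neighbouring genes are counted for each gene here. The 12 genes in between had 13 methylated windows among 137, in 8 genes, and a median of 7.05%. As a description over the 49 genes, level and gene length had a Spearman's rho of 0.431 and level and log10 length a Pearson's r of 0.507. The genes share the 2 libraries, and longer genes add more inner positions to the mean. Of the 49 methylated windows, 43 lay inside a gene. In genes whose starts were listed, 23 of 27 methylated windows were more than 10 kb from a start, with a median distance of 18887 bp, and 1 lay within 5000 bp, in Tbx4 at 1913 bp. Of 245 unmethylated windows in those genes, 180 lay within 5000 bp, with a median of 2902 bp. In a short gene with 5 kb on each side no window can lie far from the start. Distance and gene length are thus mixed in this contrast, which was not taken within long genes alone. Methylated windows were also the sparser ones, with a median of 5 measured cytosines against 22 in unmethylated windows. The plot of windows along the genes shows the position of each.

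**Figure D3:**
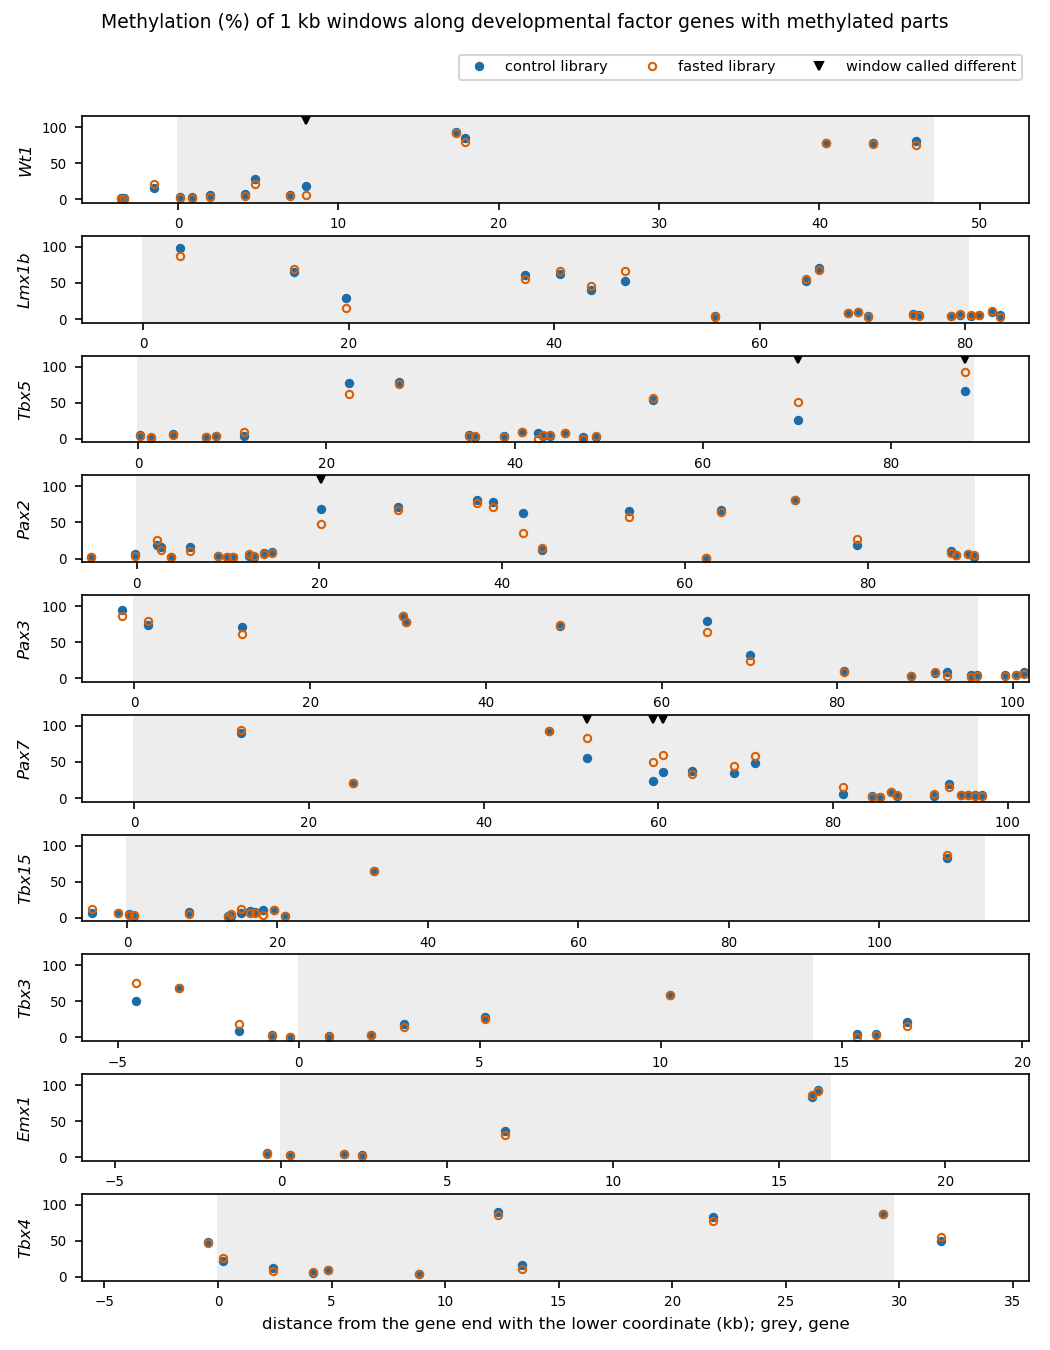
Mean methylation in percent (y axis) of windows of 1000 bp against distance in kb from the lower end of the gene (x axis), for genes of 40 kb or longer and then those with at least 2 methylated windows, in the control (filled) and fasted (open) library. Grey marks the gene and triangles the called windows, and of the methylated windows of all 49 genes 43 of 49 lie inside a gene.

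Starts, or the gene ends taken for them, were unmethylated in nearly every measured gene. A start was taken as the cytosines within 1000 bp of any listed RefSeq start, with all listed starts of a gene pooled. For the 16 genes without a listed start it was the end of the gene with more measured cytosines, 1000 bp outside to 500 bp inside. That end may not be the start. The choice can favour low levels, since unmethylated windows held more measured cytosines than methylated ones. With at least 5 cytosines required, 47 genes had a measured start, and Tbx4 with no cytosine and Zic4 with 3 did not. Of the 47, 46 were below 10% in both libraries (97.9%), against 86.0% of all protein-coding starts measured. The exception was Pitx1, a hindlimb and pituitary factor, at 12.1% and 10.3% over 38 cytosines, and it has no listed start. Pooling hides single starts: Tbx1 stood at 6.35% and 5.81% although the 300 bases of its start B stood at 22.0% and 18.2%, and 1 of the 4 Otx2 promoters, with 6 cytosines, stood at 11.7% and 5.69%. The median level at starts was 3.08%, above the 1.12% of all genes. Low values were also found in genes with methylated windows: Tbx3 at 0.85% and 0.39%, Wt1 at 2.71% and 1.69%, Pax2 at 3.21% and 2.52%, and Pax3 at 5.11% and 1.78%. Only Pax2 among them has listed starts, and for Tbx3, Wt1 and Pax3 the value is that of the gene end with more cytosines. The gene end taken for Sox9, which had methylated cytosines but no such window and no listed start, stood at 1.96% and 1.39%.

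The unmethylated state reached far. The longest series of neighbouring measured windows below 10% in both libraries had a median length of 6633 bp, from 1265 bp in Neurog1 to 15120 bp in Tbx15, against a median of 651 bp over the 17015 protein-coding genes measured. It was at least 5000 bp in 32 of the 49 genes (65.3%) and in 5.37% of those measured genes. Such lengths were also found in 34.1% of other developmental factor genes and 48.7% of Hox genes, with median lengths of 3613 bp and 4947 bp. Windows with too few cytosines did not break a series. If a gap of 2 or more unmeasured windows broke it, 12 of the 49 genes (24.5%) kept such a stretch, against 0.635% of the measured genes, and the medians were 3688 bp and 623 bp. Many of the lengths above thus bridge unmeasured sequence. Beyond the genes, the median control level was 5.52% within 5 kb, 12.0% at 5 to 10 kb, 59.4% at 10 to 20 kb and 61.1% at 20 to 50 kb. For all protein-coding genes these medians were 16.2%, 61.5%, 60.7% and 43.9%. At 5 to 10 kb the 49 genes were thus still low, and at 10 to 20 kb they were at the level of other genes.

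No gene of the 49 differed between the libraries by the rule applied to whole genes. That rule asked for levels 5 or more percentage points apart and, by Fisher's exact test on the gene's summed reads, a Benjamini-Hochberg adjusted p under 0.05 over all 17015 genes. By it 0 of 49 genes were called, against 1.83% of all protein-coding genes. The 18 genes below 5% in the control library could not be called lower. Without the limit on size, 10 of the 49 passed the test (20.4%), against 16.4% of all genes. Of the 49, 3 passed as higher in the fasted library (9.46% of all genes) and 7 as lower (6.96% of all genes). An unadjusted p under 0.05 in this test was found in 17 of the 49. Summed reads can differ where the libraries read different cytosines, and simulated libraries without any change passed this test in many genes, so a pass alone shows little. At equal depth 2 of the 49 passed (233 of all genes), with halved reads 2 (606 of all), and after dividing a gene's reads by its cytosine number 0, where none of all genes passed either. With the reads compared cytosine by cytosine in a stratified test (Cochran-Mantel-Haenszel), 7 of the 49 passed, against 7.84% of all genes, and again none was 5 points apart (1.92% of all genes). Those 7 were Pax7 and Six3, higher in the fasted library, and Dlx1, Lhx2, Pax2, Tbx2 and Wt1, lower.

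The sizes were small throughout. In 39 genes the libraries lay within 1 point of each other. In the fasted library 31 genes were lower and 18 higher, but up to 11 of the 49 changed sign under a single alternative processing. The median difference was -0.19 points, against -0.01 over all genes. The largest differences were those of Pax7, 2.07 points higher in the fasted library (95% interval 1.00 to 3.13), and Wt1, -1.99 points (-3.36 to -0.62). Windows called in Pax7 and Wt1, given below, lie inside these spans and are not separate observations. In Pax7 they hold 8, 14 and 5 of its 358 cytosines, at window differences of 27.4, 25.6 and 23.4 points. Tbx2 differed by -1.53 points (-2.67 to -0.39), Pax3 by -1.49, Dlx1 and Gsc by -1.31, Emx2 by -1.23 and Pax2 by -1.14. In Tbx2, 173 of 357 cytosines were lower and 124 higher in the fasted library, while in Pax7 137 of 358 were higher and 108 lower. Wt1 missed the adjusted threshold with summed reads (adjusted p = 0.0807 by Fisher's exact test) and passed it in the stratified test (adjusted p = 0.000861). Over all 49 genes the 95% intervals of the differences reached no lower than -3.45 and no higher than 3.22 points, by counting error. By class of level, cytosines between 10 and 25% averaged over both libraries differed by -1.01 points (-1.66 to -0.36) in the 49 genes and by -1.26 points in all genes, and those below 10% by -0.11 points (-0.27 to 0.05).

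**Figure D4:**
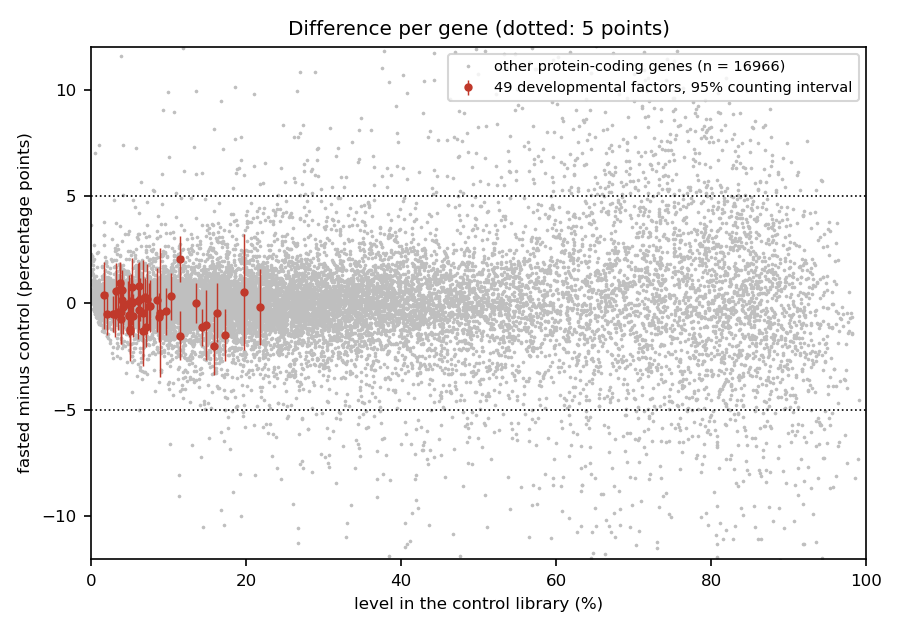
Difference in mean methylation, fasted minus control library, in percentage points (y axis) against the control level in percent (x axis) for the 49 genes with 95% counting intervals, over all other protein-coding genes, of which 127 lie beyond the plotted range of 12 points. The 49 genes lie between -1.99 and 2.07 points, inside the limits of 5 points.

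Within the genes, 8 of the 509 windows were called (1.57%), against 2% of all windows. A call needed levels 10 or more points apart and Fisher's adjusted p under 0.05 over all windows. A window below 10% in both libraries cannot be 10 points apart. Among the other windows 8 of 160 were called (5%), against 1512 of 60428 (2.50%) in all protein-coding genes. These sets are unlike, since 111 of the 160 lay between the limits, against 11257 of the 60428. In the 49 genes, windows between the limits held a median of 9 measured cytosines and methylated windows 5. Within 1 class of level the shares were not compared. In the lists described further on the share called among such other windows was 4.69% (other developmental factors), 4.48% (Hox), 4.17% (hepatocyte factors) and 1.25% (Polycomb subunits). Of the 509 windows, 5 were called higher in the fasted library, against 1.06% of all windows, and 3 lower, against 0.942% of all windows. The stratified test called 7 of the 8 (1.93% of all windows). All 8 lay inside a gene, in Pax7, Tbx5, Pax2, Six2 and Wt1, and exons and introns were not analysed here.

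Pax7 held 3 of them, all higher in the fasted library and all at least 35415 bp from its listed start. The window chr4:139796001-139797000 stood at 23.8% (control) and 49.4% (fasted), 25.6 points apart (95% interval 18.2 to 33.0), with 13 of 14 cytosines higher (adjusted p = 7.77e-07, Fisher's exact test). Its neighbour chr4:139797001-139798000 stood at 36.4% and 59.8%, with 5 of 5 higher and an adjusted p of 0.0491 by Fisher's exact test, and was the one lost in the stratified test (adjusted p = 0.121). The window chr4:139788001-139789000 stood at 55.1% and 82.5%, with 8 of 8 higher (adjusted p = 2.86e-04, Fisher's exact test). In contrast, the 3 windows of Pax7 nearest its start stood between 2.49% and 4.72% in both libraries.

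Tbx5 held 2 called windows, both higher in the fasted library. The window chr5:119866001-119867000 stood at 25.8% and 50.8%, with 7 of 8 cytosines higher (adjusted p = 4.84e-04, Fisher's exact test), and chr5:119884001-119885000, near the upper end of the gene, at 66.3% and 92.1% with 4 of 4 higher (adjusted p = 0.0395, Fisher's exact test). The windows lower in the fasted library were spread over 3 genes. The Pax2 window chr19:44766001-44767000, 9850 bp from a listed start, stood at 68.9% and 47.7% with 8 of 9 cytosines lower (adjusted p = 0.0130, Fisher's exact test). The Wt1 window chr2:105134001-105135000 stood at 18.8% and 5.80% with 7 of 8 lower (adjusted p = 9.47e-04, Fisher's exact test). The Six2 window chr17:85686001-85687000, 1728 bp from the start, stood at 20.8% and 4.55% with 5 of 5 lower (adjusted p = 0.0166, Fisher's exact test). Six2 as a whole stood below 5% in both libraries.

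Neighbouring cytosines of a called window often had equal read counts, as they do where the same reads cover them. In the Six2 window each of the 5 cytosines had 24 reads (control) and 22 reads (fasted), and where these are the same reads, the summed reads of 120 and 110 count each of them at every cytosine. In the Wt1 window 6 of 8 cytosines had 26 and 32 reads. When the summed reads were divided by the number of cytosines, none of the 8 windows was called, and 4 of all 124884 windows were. When every count was halved 1 of the 8 was called, the Pax7 window with 14 cytosines, and 355 of all windows were. The plot of single cytosines shows the levels behind each called window.

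**Figure D5:**
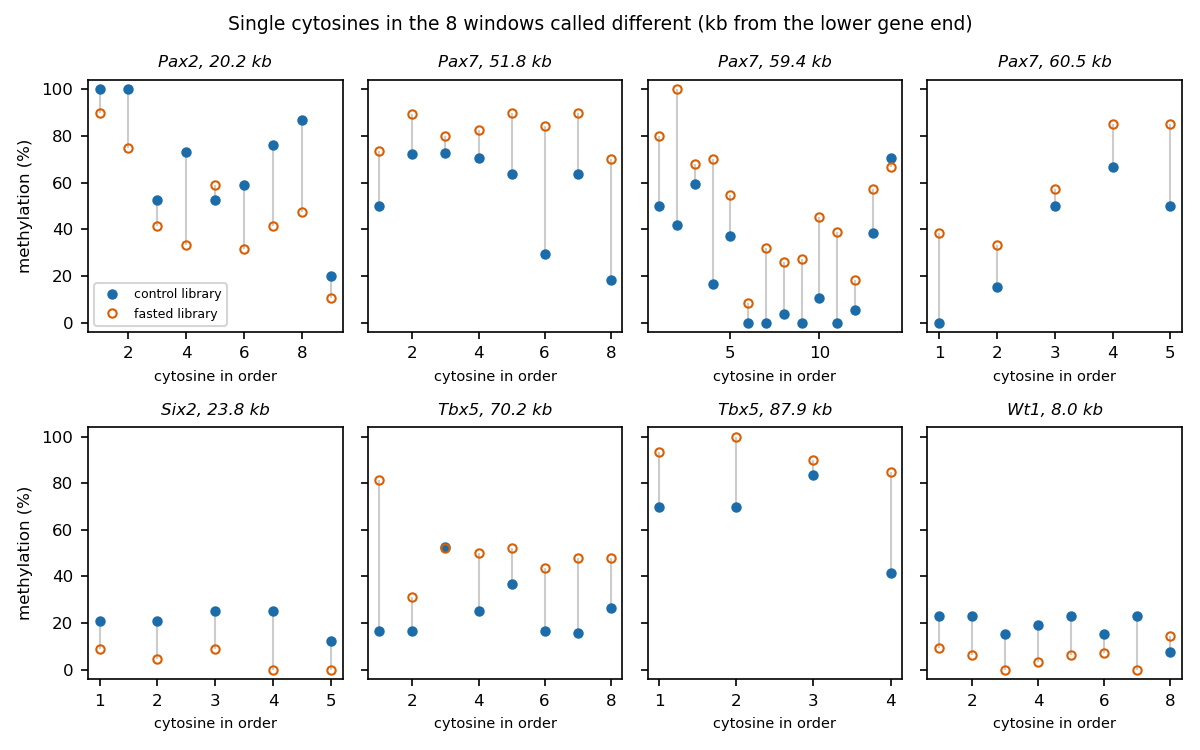
Methylation in percent (y axis) of each measured cytosine in the 8 called windows, in order of position (x axis), in the control (filled) and the fasted library (open). Each panel title gives the distance from the lower gene end, and in the Pax7 and Tbx5 windows the fasted points lie mostly above the control points, and in the Pax2, Wt1 and Six2 windows mostly below.

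No single cytosine of the 11732 was called, which needed an adjusted p under 0.05 by Fisher's exact test over all 1603296 autosomal cytosines and a difference of at least 25 points, against 0.082% of all cytosines. A cytosine below 10% in both libraries could not be called, since its levels cannot lie 25 points apart. This held for 71.5% of the 11732, against 61.1% of the 1267640 cytosines in all protein-coding genes. Of those 1267640 cytosines, 744 were called. Shares called among the remaining cytosines alone were not compared. At an unadjusted p under 0.05 there were 200 of the 11732 (1.70%), against 1.69% of cytosines in all genes. The smallest adjusted p, 0.0236, was that of a cytosine in Six2 on the minus strand at chr17 position 85681103, named here after its value was seen. It was methylated in 18 of 84 control reads and 0 of 64 fasted reads, a difference of 21.4 points, below the required size. The largest differences in each direction were in cytosines of few reads, and 2 are given per direction. Position 119866657 in Tbx5 stood at 16.7% and 81.3% and position 139796045 in Pax7 at 41.7% and 100%, both in called windows. On the lower side, position 112783994 in Sox9 stood at 72.7% and 28.6%, and position 85830421 near Tbx2 at 50% and 6.67%. At median coverages of 21 and 22 reads, differences at single cytosines of the sizes seen for whole genes were not detectable.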

How the data were processed

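Per the labels' protocols, liver DNA was cut with TaqαI and MspI, size-selected, bisulfite-treated, amplified by PCR and sequenced. Bismark 0.14.3, the build mm10 and bcl2fastq 1.8.4 are listed in the submitters' processing notes. For trimming, duplicates and overlapping mates the steps were not given in the sources used here. The authors deposited, for each library, CpG cytosines by strand with read counts (methylated and total), a percent, and a score of 1000 times the fraction, which matched the counts within rounding (at most 0.5). The deposited read counts gave all values.

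Autosomal cytosines (19 chromosomes) covered by 10 or more reads in each library were kept, 1603296 in all, with strands apart. Gene spans came from a RefSeq table of GRCm38.p6 and starts from its promoter table. Gene spans with at least 5, windows of 1000 bp with at least 3, and single cytosines were compared by two-sided Fisher's exact tests on reads with Benjamini-Hochberg adjustment, in Python 3.11.15 with scipy 1.17.1. Intervals at 95% treat reads as independent draws. On simulated data without change, summed reads passed the threshold in many gene spans, called a few of them and called no window, while the stratified test passed none. Reads at each cytosine were drawn independently there, without reads that span several cytosines or are duplicated. The simulation thus cannot show how often the tests call unchanged spans or windows where such reads occur. Values are given by rule for the 12 genes with the largest methylated share, the 10 lowest, the 8 with the largest difference and every gene with a called window, and as levels for all others. Members and lists were chosen with earlier results of these data known. Alternatives were other coverage minimums, equal depth, merged strands, read weighting, divided or halved reads, other flanks, windows, thresholds and a coverage cap. Added after seeing the data were the stratified test, other definitions of a start, and the gap that breaks a stretch. Some genes that the rule would name in the other lists are not reported here.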

Additional observations from a re-analysis of the deposited data

How the results depend on the processing

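With 1 library per group, no animal or library could be left out. No paired analysis was possible because each group had 1 library. No gene span was called under any alternative, but with divided reads no span of all 17015 was called either. The 96 recomputed differences of the 8 named spans kept direction, while sizes moved: Tbx2 from -3.63 to -0.98 points, Pax7 from 1.21 to 2.80, Pax3 from -2.08 to -0.48, Pax2 from -1.52 to -0.42, Dlx1 from -2.19 to -0.97, Emx2 from -1.36 to -0.58, Gsc from -1.61 to -0.70 and Wt1 from -2.69 to -1.35. The adjusted p stayed under 0.05 in 11 of 12 settings for Tbx2 and 10 for Pax7, 5 to 8 for the other 5 and 1 for Wt1. Equal read weighting and the larger required difference do not enter that p, so those settings repeat the main value. Over all 49 genes, 8 differences changed sign with a minimum of 5 reads and 10 with a minimum of 20. For the 8 called windows, 75 differences were recomputed, none turned, and 26 were no longer called. In spans and windows alike, settings that changed only the test or a limit left the difference as it was. A direction could not turn in those settings, and these spans and windows were picked for their differences in the same data. The number of windows called was 8 in the text, 0 when a window's summed reads were divided by its cytosines and 1 with halved reads, against 2502, 4 and 355 of all 124884 windows. The share of methylated windows was 9.63% in the text, 15.1% with a minimum of 5 reads, 2.96% with a minimum of 20 and 5.72% with at least 5 cytosines in a window. These were 49 of 509 windows, 87 of 576, 10 of 338 and 25 of 437, since each minimum also changes which windows are measured. No single cytosine was called in the text, against 1315 of all. With a minimum of 5 reads 1 was called, in Pax6 at position 105690435 (100% of 6 reads, then 0% of 21), against 1352 of all cytosines. At equal depth 1 was called, the Six2 position 85681103, against 772. With strands merged 2 were called, Pax7 at 139796337 (0% and 40.6%) and Pitx1 at 55833987 (6.25% and 35.7%), against 2389. Stretches of at least 5000 bp were found in 32 genes, and in 12 if a gap of 2 unmeasured windows broke them, an alternative chosen after seeing the data. Depth and sparse cut sites leave much of the long genes unmeasured.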

Other observations

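Other gene groups were measured in the same way, in lists chosen with earlier results known. Among 126 other developmental factor genes, the median level was 6.14% in the control library and 65.1% of genes were below 10% in both. Among the lowest were the neuronal factors Pou4f1, at 2.03% (control) and 2.23% (fasted), and Pou3f2, at 2.55% and 3.04%. Among the highest were the mesoderm factors Meox2, at 79.7% in both libraries, and Meox1, at 41.7% and 45.6%. Meox1 had 72 measured cytosines, but Meox2 had 16, fewer than any of the 49 genes. The range of this list thus went beyond that of the 49 genes, whose highest was 21.8%. The 39 Hox genes had a median of 6.32%, from 3.58% (Hoxd1) to 13.6% (Hoxb1), with 82.1% below 10% in both libraries and no methylated window among 198. At 10 to 20 kb outside the gene the median was 6.89% for Hox genes, whose neighbours are other Hox genes, and 59.4% for the 49 genes.

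Genes known as hepatocyte factors and genes of the Polycomb complexes were more mixed. Of 22 hepatocyte factor genes, 31.8% were below 10% in both libraries, with a median of 14.6%. Cebpa (1.35% and 1.09%), Cebpb (1.45% and 1.36%) and Foxa2 (2.77% and 3.19%) were lowest, and Creb3l3 (66.2% and 61.7%) and Nr1i3 (56.5% and 53.0%) were among the highest. Creb3l3 had 36 measured cytosines and Nr1i3 19, while Cebpa had 240. The 22 genes of Polycomb subunits had a median of 13.9%, with Suz12 (3.55% and 3.90%), Rbbp4 (3.66% and 4.0%) and Bmi1 (4.01% and 4.82%) lowest and Kdm2b (33.8% and 33.3%), Jarid2 (31.0% in both libraries) and Ezh1 (30.1% and 30.5%) highest. No gene of these lists was called as a whole between the libraries, against 1.83% of all protein-coding genes.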
